A study of Mus musculus with 8 samples.

Results

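The progesterone receptor genes examined here are the nuclear receptor gene Pgr, the membrane-associated receptor component genes Pgrmc1 and Pgrmc2, and the membrane progestin receptor genes Paqr5, Paqr6, Paqr7, Paqr8 and Paqr9. They were chosen by symbol as the known receptor gene and its membrane counterparts, and all 8 were found among the 51886 gene symbols of the expression table. The libraries came from peri-ovulatory granulosa cells of the PGR-A KO mouse strain, 4 from knockout (PGR-A KO) and 4 from wild-type (WT) animals. Mice of both genotypes were 21 to 27 days old, received 5 IU of eCG to grow follicles and, 46 h later, 5 IU of hCG in place of the ovulatory surge of luteinizing hormone, and cells were collected 8 h after hCG. Each library pooled cells of 2 to 3 mice, so a replicate is a pool, and p-values measure the spread between pools. The sources used here do not say how the PGR-A allele was made, which tissues carry it or how the granulosa cells were purified.

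Progesterone acts through receptors of unrelated kinds. PGR is a ligand-activated transcription factor made as a long isoform, PGR-B, and a short isoform, PGR-A, which lacks the first stretch of PGR-B. In the ovary, granulosa cells of the preovulatory follicle switch on Pgr for a short time after the luteinizing hormone surge, and mice without PGR do not ovulate. PGRMC1 and PGRMC2 are haem-binding proteins of the MAPR family (membrane-associated progesterone receptor), with a fold like that of cytochrome b5. The PAQR proteins span the membrane several times and are known for fast, non-genomic responses to progestins.

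The start codons of PGR-B and PGR-A are shown because they set what a gene-level value of Pgr can and cannot measure. Pgr (ENSMUSG00000031870.16) lies on chromosome 9 from 8899833 to 8968611 on the plus strand of mm10, and the GENCODE M21 annotation of that build gives it 4 transcripts. Pgr-201 and Pgr-204 start translation at the upstream codon and encode 926 amino acids, whereas Pgr-202 starts at the downstream codon and encodes 761. Both codons lie in the first exon, 495 bases apart and in the same reading frame, and the downstream codon is codon 166 of the longer product. The next ATG in frame is codon 588. The stretches below were read from the GENCODE M21 transcript Pgr-201, 5′ to 3′ on the plus strand, with the start codon in capitals, at chr9:8900468-8900527 for PGR-B and chr9:8900933-8900992 for PGR-A; both are coding sequence of exon 1.
PGR-B start: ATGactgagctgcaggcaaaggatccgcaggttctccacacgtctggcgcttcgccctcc
PGR-A start: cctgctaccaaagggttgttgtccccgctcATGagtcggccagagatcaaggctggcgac
Pgr-201 and Pgr-202 have the same 8 exons and the same 3068 bases, and those bases recur as an uninterrupted run in the 6889 bases of Pgr-204. The value of Pgr is therefore a sum over transcripts that cannot tell the isoforms apart, and it is no measure of PGR-A loss and no check of the labels.

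**Figure D1:**
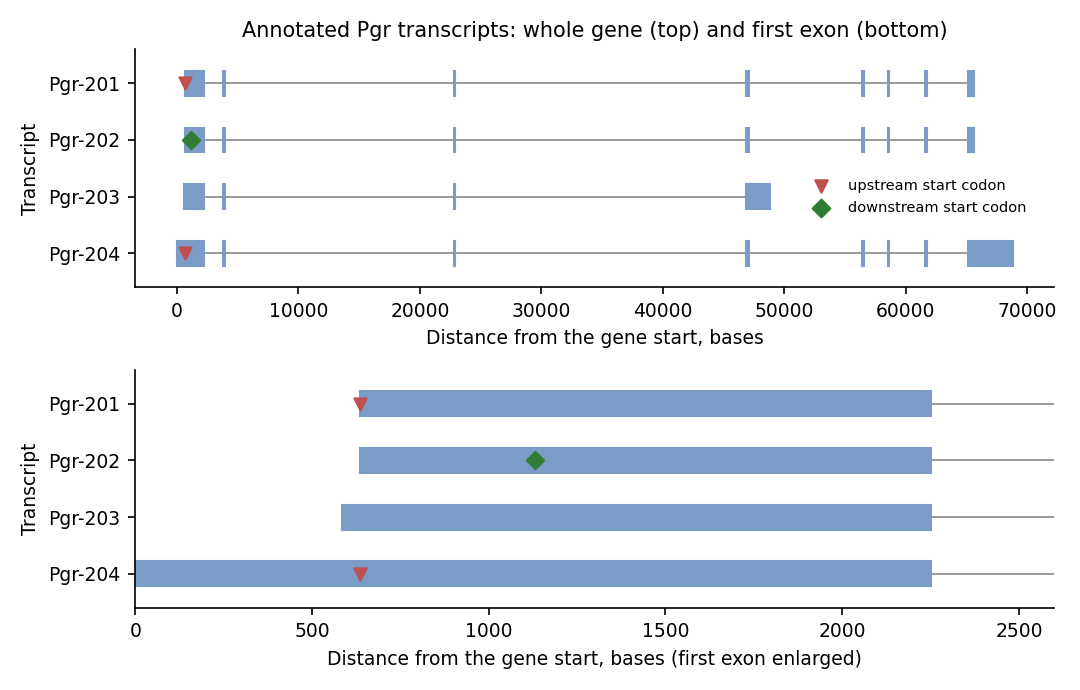
Annotated transcripts of Pgr in GENCODE M21. The x axis is the distance from the gene start in bases and each row is a transcript, with exons as boxes; the lower panel enlarges the first exon. Triangles mark the upstream start codon (635 bases from the gene start) and diamonds the downstream start codon (1130 bases); Pgr-201 and Pgr-202 have the same exons and differ in the start codon annotated.

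The levels of the 8 genes spanned a wide range, led by the PGRMC genes and Paqr7. Levels are given in TPM, a transcript abundance that accounts for transcript length and is scaled to the same total in every library, which allows genes to be set side by side. Pgrmc1 (ENSMUSG00000006373.10, chromosome X, 36598206 to 36606079, plus strand) was the most abundant, with 150 ± 6.74 TPM (SD, n = 8), and 836 symbols (1.61%) had a higher mean. Pgrmc2 (ENSMUSG00000049940.7, chromosome 3, 41066326 to 41083046, minus strand) followed with 46.6 ± 2.43 TPM (SD, n = 8). Paqr7 (ENSMUSG00000037348.15, chromosome 4, 134496697 to 134510235, plus strand), which encodes the membrane progestin receptor alpha, was the leading PAQR gene with 34.9 ± 5.22 TPM (SD, n = 8). The library ranges of these leading genes did not overlap, so the order Pgrmc1, Pgrmc2, Paqr7 held in all 8 libraries.

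The middle of the order was shared by Paqr6 and Paqr8. Paqr6 (ENSMUSG00000041423.16, chromosome 3, 88364584 to 88368541, plus strand), for the receptor delta, had 10.5 ± 1.89 TPM (SD, n = 8), and Paqr8 (ENSMUSG00000025931.15, chromosome 1, 20890606 to 20939650, plus strand), for the receptor beta, had 9.91 ± 1.83 TPM (SD, n = 8). These neighbours did not differ beyond their spread: Paqr6 was above Paqr8 in 4 of 8 libraries. Pgr came next with 2.05 ± 1.09 TPM (SD, n = 8), and its range overlapped that of Paqr9 (ENSMUSG00000064225.6, chromosome 9, 95559657 to 95568023, plus strand), for the receptor epsilon, with 1.23 ± 0.224 TPM (SD, n = 8). Pgr was above Paqr9 in 6 of 8 libraries. The order differed between the knockout and the WT libraries, which is a description with no test. In PGR-A KO the ranges did not overlap (Pgr 2.01 to 3.52, Paqr9 0.896 to 1.52 TPM), whereas in WT the means were 1.15 TPM for Pgr and 1.21 TPM for Paqr9, and Pgr was above in 2 of 4 libraries. Paqr5 (ENSMUSG00000032278.11, chromosome 9, 61953481 to 62026856, minus strand), for the receptor gamma, was lowest, with 0.201 ± 0.0632 TPM (SD, n = 8), and stayed below 1 TPM in every library.

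**Figure D2:**
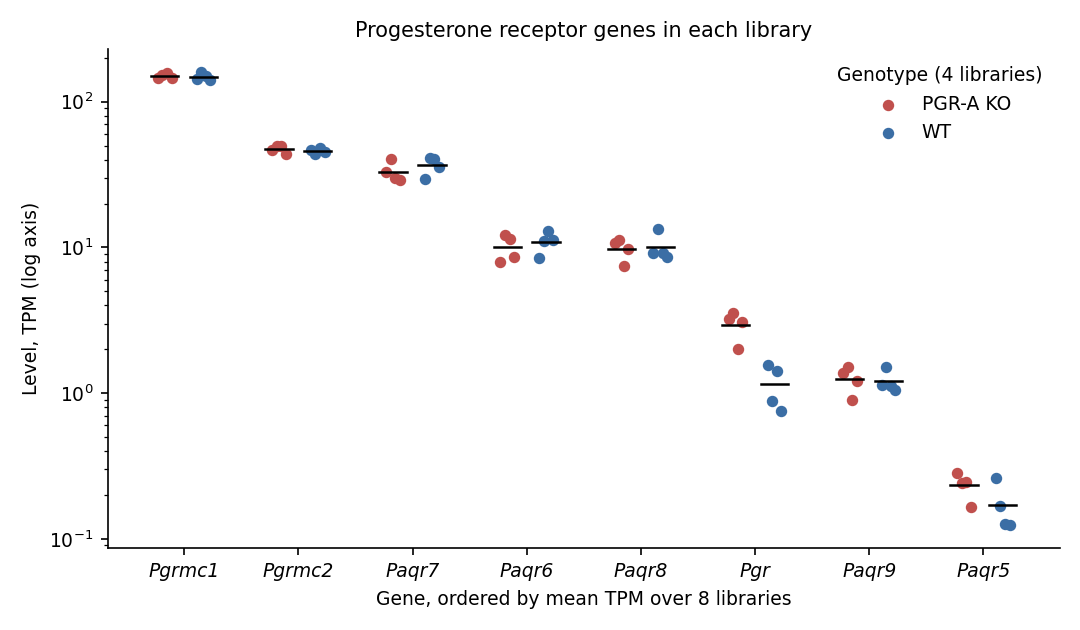
Level of each progesterone receptor gene in TPM, on a log axis, with genes ordered by their mean. Points are single libraries (4 PGR-A KO, 4 WT) and bars are group means; Pgr, at 2.01 to 3.52 TPM in PGR-A KO and 0.756 to 1.56 TPM in WT, is the gene whose groups do not overlap.

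Depth is unknown because TPM keeps none, and the labels give no batch. The TPM of each library summed to between 994519 and 997022, no libraries held identical values, and libraries correlated at 0.970 to 0.991 on the log2 scale. PGR-A KO replicate 3 and WT replicate 1 stood apart in a list of 22 PGR-dependent genes. That list was chosen with earlier results of these data known, so it is no independent check of these libraries. Relative to the mean of all libraries, its average log2 level was -0.46 in PGR-A KO replicate 3, against 0.18 to 0.38 in the other knockout libraries. It was 0.41 in WT replicate 1, against -0.36 to -0.08 in the other WT libraries. Results on Pgr are therefore also given without both. Granulosa markers were abundant in all libraries, with Inha, the inhibin alpha subunit, at 3552 ± 515 TPM in the knockout libraries against 4063 ± 549 TPM in the WT libraries (SD, n = 4 each). In bulk samples, fewer cells of a type and less RNA per cell cannot be told apart.

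Pgr was scarce in all libraries, and its level in the knockout pools exceeded that in WT, a difference that did not pass when adjusted over all genes. Pgr stood at 3.21, 3.52, 2.01 and 3.08 TPM in PGR-A KO replicates 1 to 4. In WT replicates 1 to 4 it stood at 1.56, 0.878, 1.41 and 0.756 TPM. Every knockout library was thus above every WT library, and the libraries nearest to each other were PGR-A KO replicate 3 and WT replicate 1. The ratio of group means was 2.56, and the difference on the log2(TPM + 1) scale was 0.88 (SE 0.18, 95% interval 0.48 to 1.28, not adjusted for the number of genes). Limma gave an unadjusted p of 0.000708, the rank 23 of 14472 genes, and an adjusted p of 0.445 (Benjamini-Hochberg over all genes tested, threshold 0.05). The exact 2-sided permutation p was 0.0286, the smallest that 70 assignments of 4 and 4 libraries allow.

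None of the progesterone receptor genes passed the adjusted threshold. Of the 8 genes, 7 passed the filter of at least 1 TPM in at least 4 libraries, and 0 of these 7 were called by limma, against 0.0138% of all 14472 genes tested (2 genes). At an unadjusted p under 0.05 there was 1, Pgr, against 6.31% of all genes (913) in either direction and 0.974% with PGR-A KO higher. The share in 1 direction depended on scaling: 141 of the 913 had higher means in PGR-A KO, but 319 of 882 with TMM factors (a rescaling by the trimmed mean of log ratios) and 385 of 910 with quantile normalization. Pgr was likewise the sole member whose groups did not overlap, against 3.42% of all genes in either direction and 0.601% with PGR-A KO higher. Pgr met the filter in all 4 knockout libraries and in 2 WT libraries, so it would have been tested on its knockout level alone. With both PGR-A KO replicate 3 and WT replicate 1 left out, the difference of Pgr was 1.10 and passed (limma adjusted p = 0.0107). But these libraries were picked by their values and hold the lowest knockout and the highest WT level of Pgr. Leaving them out had to widen its difference, so this fit is no further support. In that fit 8.01% of genes passed, 3.84% with PGR-A KO higher. The log2 size depends on the constant added to low values: it was 1.31 with a pseudocount of 0.1 and 0.37 with a pseudocount of 5.

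**Figure D3:**
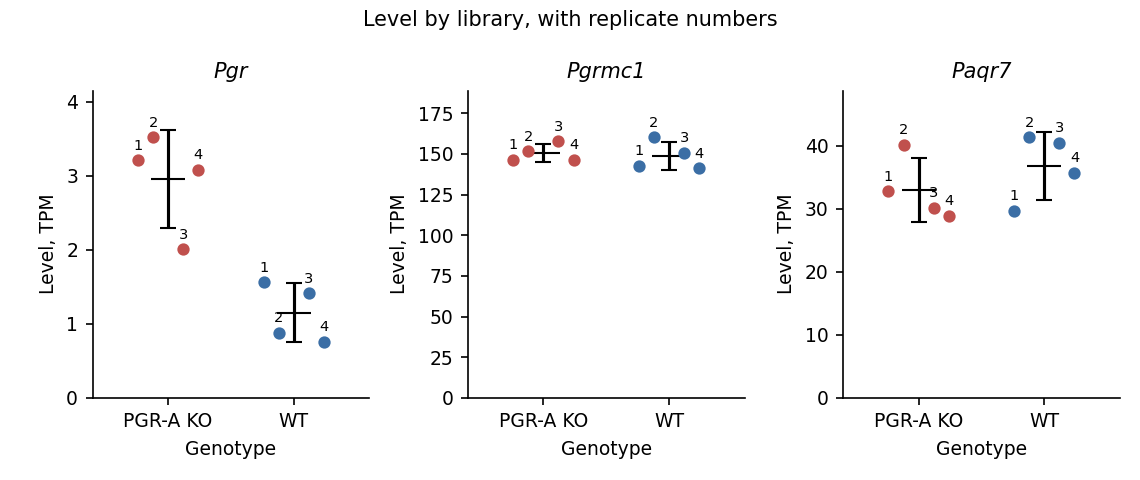
Levels in TPM of Pgr, Pgrmc1 and Paqr7 by genotype, each on its own axis from 0. Points are libraries with their replicate number, and bars give the mean ± SD (n = 4). Pgr separates the genotypes (2.96 ± 0.658 against 1.15 ± 0.395 TPM), while the libraries of Pgrmc1 and Paqr7 overlap.

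The PGRMC genes varied least of the set and were also its most abundant. Whether their level accounts for this was not tested. Pgrmc1, whose product binds haem and partners cytochrome P450 enzymes, stood at 146, 152, 158 and 146 TPM in PGR-A KO replicates 1 to 4 and at 143, 160, 151 and 141 TPM in WT replicates 1 to 4. The genotypes overlapped, and the coefficient of variation over all 8 libraries was 4.50%. The log2 difference of Pgrmc1 was 0.02 (95% interval -0.13 to 0.16, limma adjusted p = 0.971). Pgrmc2, its close relative, stood at 46.6, 49.8, 49.7 and 43.6 TPM in PGR-A KO and at 46.5, 43.5, 47.9 and 45.5 TPM in WT. Its groups overlapped as well, with a coefficient of variation of 5.22% and a log2 difference of 0.05 (95% interval -0.11 to 0.20, limma adjusted p = 0.937). Pgrmc1 exceeded Pgrmc2 by a ratio of 3.04 to 3.68 over the libraries of both genotypes.

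Among the membrane progestin receptors, no genotype difference passed the threshold. Paqr7 stood at 32.8, 40.2, 30.1 and 28.9 TPM in PGR-A KO and at 29.7, 41.3, 40.5 and 35.7 TPM in WT. The lowest WT library, replicate 1, lay within the knockout range, and the log2 difference was -0.15 (95% interval -0.45 to 0.14, limma adjusted p = 0.883). Paqr6 stood at 7.88, 12.3, 11.4 and 8.55 TPM in PGR-A KO and at 8.48, 11.05, 12.9 and 11.2 TPM in WT. Its low libraries were replicates 1 and 4 of PGR-A KO and replicate 1 of WT, and the log2 difference was -0.12 (95% interval -0.48 to 0.25, limma adjusted p = 0.932). Paqr8 stood at 10.7, 11.3, 7.41 and 9.74 TPM in PGR-A KO and at 9.14, 13.3, 9.10 and 8.59 TPM in WT. WT replicate 2 was its highest library and PGR-A KO replicate 3 its lowest, and the log2 difference was -0.03 (95% interval -0.39 to 0.34, limma adjusted p = 0.983).

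The least abundant PAQR genes also overlapped between genotypes. Paqr9 stood at 1.37, 1.52, 0.896 and 1.22 TPM in PGR-A KO and at 1.14, 1.52, 1.12 and 1.05 TPM in WT, with a log2 difference of 0.03 (95% interval -0.27 to 0.32, limma adjusted p = 0.980). PGR-A KO replicate 3 was its lowest library and replicate 2 of either genotype its highest. Paqr5 stood at 0.281, 0.243, 0.244 and 0.164 TPM in PGR-A KO and at 0.263, 0.167, 0.126 and 0.124 TPM in WT. Paqr5 did not pass the filter and was not tested; WT replicate 1 lay among the knockout libraries. The intervals of the tested genes other than Pgr reached no lower than -0.48 and no higher than 0.34 on the log2 scale, which does not show that the genotypes are alike.

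**Figure D4:**
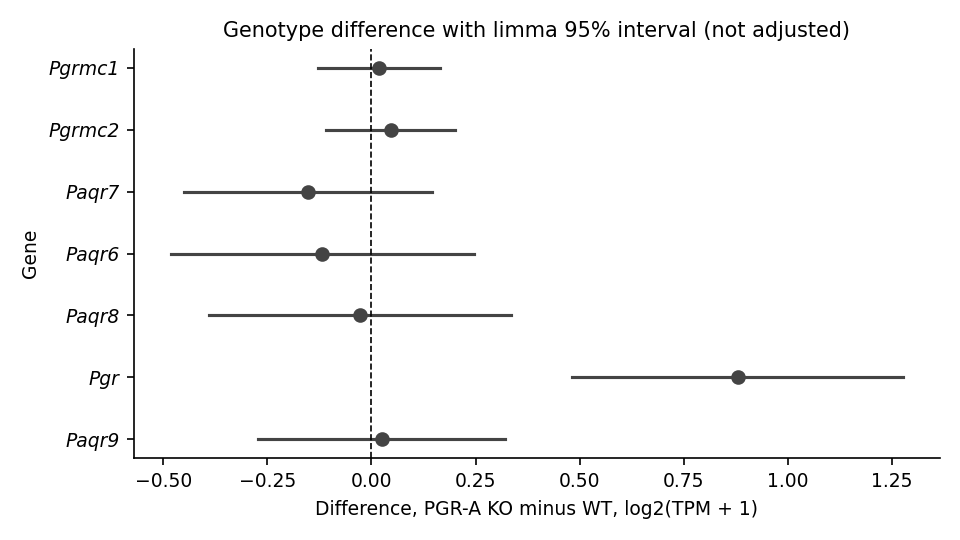
Difference between PGR-A KO and WT on the log2(TPM + 1) scale for the 7 tested genes, with the limma 95% interval, not adjusted for the number of genes. The interval of Pgr runs from 0.48 to 1.28, and the other 6 intervals include 0.

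Within each library, Pgrmc1 made up more than any other gene of the summed receptor transcripts. No sum or share differed between genotypes past the adjusted threshold, which a lone value could not pass with so few libraries. The summed TPM of all 8 genes ran from 242 to 270 TPM in PGR-A KO and from 240 to 272 TPM in WT. Pgrmc1 made up 59.1% ± 2.20 of the sum (SD, n = 4) in PGR-A KO and 58.4% ± 1.08 (SD, n = 4) in WT, and Pgrmc2 made up 18.6% ± 0.459 and 18.04% ± 1.46 (SD, n = 4). Paqr7 made up 12.9% ± 1.47 in the knockout libraries against 14.4% ± 1.36 in the WT libraries (SD, n = 4 each). Pgr made up 1.16% ± 0.258 in the knockout libraries against 0.455% ± 0.167 in the WT libraries (SD, n = 4 each). Pgrmc1 was 43.1 to 78.6 times as abundant as Pgr in the knockout libraries and 91.4 to 187 times in the WT libraries.

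A share within a library is not moved by scaling the library as a whole. The Pgr share gave an exact 2-sided permutation p of 0.0286, the smallest possible, and 0.286 when adjusted over the 10 sums and shares compared. A lone value at the smallest p could not pass after this adjustment, so not passing does not show that the shares are alike. The 7 other shares had exact permutation p from 0.2 to 0.857 before adjustment. The summed TPM of Pgrmc1 and Pgrmc2 was 198 ± 7.95 in the knockout libraries against 195 ± 7.89 in the WT libraries (SD, n = 4 each), with an adjusted exact permutation p of 0.857. The summed TPM of Paqr5 to Paqr9 was 54.3 ± 7.70 in the knockout libraries against 59.1 ± 8.22 in the WT libraries (SD, n = 4 each), with an adjusted exact permutation p of 0.743.

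Shared sequence could affect the values of Paqr6 and Paqr7. Of the 2506 distinct stretches of 31 bases in the annotated Paqr6 transcripts, 17.8% also occur in transcripts of other genes, most often the predicted gene Gm6821. Gm6821 was listed at 0 to 0.406 TPM. For Paqr7 the share was 5.71%, most often with 6030443J06Rik, which stood at 0.610 to 1.03 TPM. For Pgr it was 0.094%, for Paqr5 0.127% and for Paqr9 0.012%, and for Pgrmc1, Pgrmc2 and Paqr8 it was 0. Paqr5 and Paqr8 each overlap 1 small RNA gene on the opposite strand, and whether strand was used in quantification is not given in the sources used here.

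The genes whose pattern over the 8 libraries lay closest to that of Pgr were Zdhhc23, a protein palmitoyltransferase gene, Hunk, a kinase gene, and Snap91, for a clathrin assembly protein. Closeness was the root mean square difference of log2(TPM + 1) values, each gene centred on its own mean, searched over 12733 named genes and given as a description with no test. It was 0.17 for Zdhhc23, 0.18 for Hunk and 0.18 for Snap91, where Pgr itself varied by 0.50 around its mean. Zdhhc23 stood at 43.7, 37.5, 22.7 and 37.4 TPM in PGR-A KO and at 24.9, 18.6, 24.7 and 19.4 TPM in WT. Chosen for this closeness, these genes shared with Pgr its lowest knockout library, PGR-A KO replicate 3, and its highest WT library, WT replicate 1. Unlike those of Pgr, their groups overlapped. Their limma adjusted p were 0.721, 0.752 and 0.721.

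Closest to Pgrmc1 were Ddx10, Sgpp1 and Gtf3c3, at 0.024 to 0.030, and closest to Pgrmc2 were Txndc9, Ostc and Diaph3, at 0.014 to 0.025. For Paqr6 they were Hlcs, Smpdl3b and Rad50, at 0.055 to 0.066. For Paqr7 they were Pigv, Prxl2b and Setd6, at 0.057 to 0.067. For Paqr8, Tmem141 was at 0.053 and Ldb2 at 0.068. For Paqr9 they were Zrsr1, Agpat2 and Zbtb42, at 0.047 to 0.050. The genes that lay closest to the PGRMC genes did so on a small scale, since Pgrmc1 and Pgrmc2 varied by only 0.060 and 0.069 around their means.

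Relatives of the membrane receptors that are not progesterone receptors showed no called difference. Of 6 other PAQR family genes, the mean of 2 was higher and that of 4 lower in PGR-A KO, 0 passed, and the median log2 difference was -0.07, beside -0.02 over all genes tested. Paqr3, which encodes a Golgi protein that restrains Raf signalling, stood at 3.22, 3.70, 3.97 and 3.54 TPM in PGR-A KO and at 4.62, 5.88, 5.62 and 4.99 TPM in WT. Its log2 difference was -0.44 (95% interval -0.68 to -0.21, limma adjusted p = 0.566). The groups of Paqr3 did not overlap, as for 3.42% of all genes tested. Paqr3 is named for the lowest limma p of its list, a choice that favours such genes. Adipor2, an adiponectin receptor gene and the most abundant of these, had 147 ± 27.9 TPM in the knockout libraries against 140 ± 22.4 TPM in the WT libraries (SD, n = 4 each). Both other MAPR family genes, Nenf and Cyb5d2, had lower means in PGR-A KO and neither passed. Nenf, for the secreted protein neudesin, had 80.6 ± 8.92 TPM in the knockout libraries against 91.6 ± 15.4 TPM in the WT libraries (SD, n = 4 each).

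Genes that work with the receptors were next. Of 12 PGRMC partners in haem, sterol and P450 chemistry, the mean of 8 was higher and that of 4 lower in PGR-A KO, 0 passed, and the median log2 difference was 0.12. Cyb5a, the electron donor cytochrome b5, had 711 ± 94.7 TPM in the knockout libraries against 911 ± 122 TPM in the WT libraries (SD, n = 4 each; limma adjusted p = 0.757). Of 10 G protein and adenylyl cyclase genes, through which membrane progestin receptors can signal, the mean of 4 was higher and that of 6 lower, 0 passed, and the median was -0.04. That median was positive without PGR-A KO replicate 3 (0.010), without WT replicate 1 (0.013) and when both were left out (0.060). Adcy9, an adenylyl cyclase, had 14.2 ± 1.68 TPM in the knockout libraries against 19.8 ± 2.81 TPM in the WT libraries (SD, n = 4 each; limma adjusted p = 0.636). Its groups did not overlap, as for 3.42% of all genes tested, and it is named for the lowest limma p of the list. Gnas, for the stimulatory G protein alpha subunit, was the most abundant, with 851 ± 83.8 TPM in the knockout libraries against 837 ± 96.5 TPM in the WT libraries (SD, n = 4 each).

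The partners of nuclear PGR did not differ past the threshold either. Of 14 steroid receptor chaperones, which hold PGR ready for hormone, the mean of 11 was higher and that of 3 lower, 0 passed, and the median log2 difference was 0.04. Hspa8, a heat shock cognate, had 2053 ± 165 TPM in the knockout libraries against 1981 ± 236 TPM in the WT libraries (SD, n = 4 each). Fkbp5, a co-chaperone that steroid receptors also induce, had 389 ± 72.7 TPM in the knockout libraries against 322 ± 57.0 TPM in the WT libraries (SD, n = 4 each; limma adjusted p = 0.824). Of 13 coactivators and corepressors, the mean of 7 was higher and that of 6 lower, 0 passed, and the median was 0.00 (-0.05 to 0.06 with a library left out). Cited1 had 41.4 ± 4.58 TPM in the knockout libraries against 63.7 ± 17.3 TPM in the WT libraries (SD, n = 4 each; limma adjusted p = 0.721). Its groups did not overlap, as for 3.42% of all genes tested, and it is named for the lowest limma p of the list. Its relative Cited2 had 400 ± 66.2 TPM in the knockout libraries and 486 ± 144 TPM in the WT libraries (SD, n = 4).

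Other steroid receptors, the ligand pathway and the PGR-dependent genes were examined last. Of 5 other steroid receptors tested, the mean of 2 was higher and that of 3 lower in PGR-A KO, 0 passed, and the median log2 difference was -0.12. Esr2, the estrogen receptor beta of granulosa cells, was far above Pgr, with 61.9 ± 16.6 TPM in the knockout libraries against 87.0 ± 25.5 TPM in the WT libraries (SD, n = 4 each; limma adjusted p = 0.798). Of 9 genes of progesterone synthesis and breakdown, the mean of 7 was higher and that of 2 lower, 0 passed, and the median was 0.15. It was 0.03 when either WT replicate 3 or PGR-A KO replicate 1 was left out, and 0.34 without PGR-A KO replicate 3. Hsd3b1, which makes progesterone from pregnenolone, had 1872 ± 385 TPM in the knockout libraries against 2305 ± 736 TPM in the WT libraries (SD, n = 4 each). Akr1c14, a hydroxysteroid dehydrogenase gene, had 153 ± 57.5 TPM in the knockout libraries against 268 ± 151 TPM in the WT libraries (SD, n = 4 each; limma adjusted p = 0.808). Of 22 PGR-dependent ovulatory genes, the mean of 17 was higher and that of 5 lower, 0 passed, and the median was 0.27. It ran from 0.10 without WT replicate 3 to 0.47 without WT replicate 1, and was 0.67 with PGR-A KO replicate 3 left out as well. PGR-A KO replicate 3 and WT replicate 1 stood apart in this same list. Leaving them out had to widen its average difference, so the rise is no further support. Klf15, a transcription factor gene, had 9.18 ± 0.310 TPM in the knockout libraries against 11.9 ± 0.928 TPM in the WT libraries (SD, n = 4 each; limma adjusted p = 0.570). Its groups did not overlap, as for 3.42% of all genes tested, and it is named for the lowest limma p of the list. Ctsl, for cathepsin L, was the most abundant of the list, with 4940 ± 1168 TPM in the knockout libraries and 4695 ± 807 TPM in the WT libraries (SD, n = 4).

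**Figure D5:**
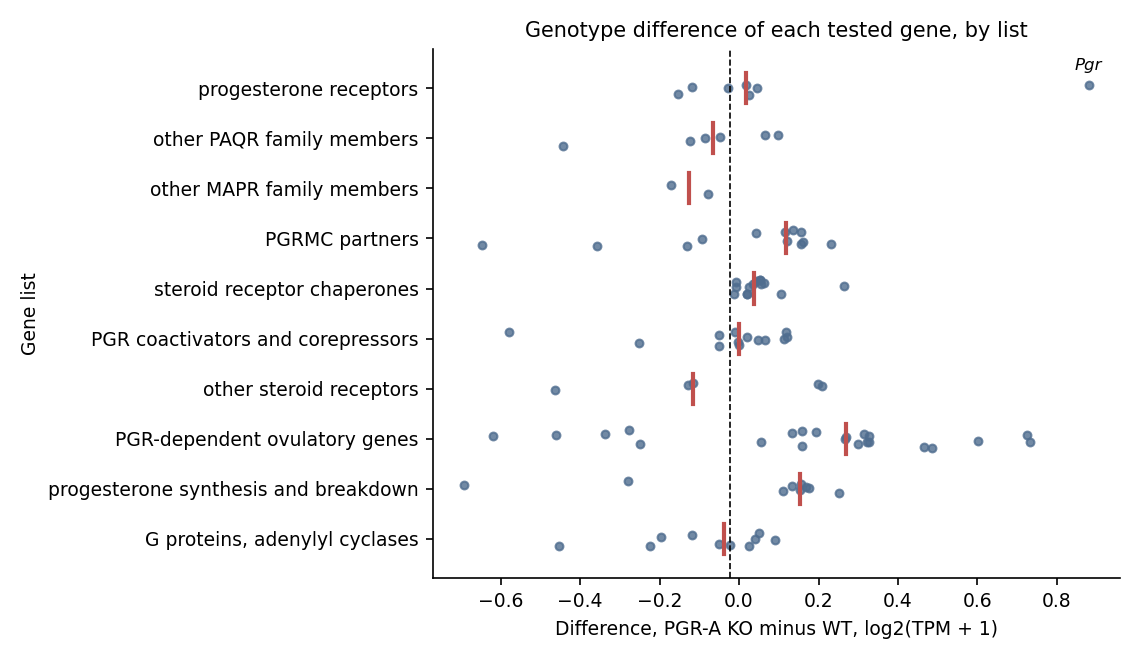
Difference between PGR-A KO and WT on the log2(TPM + 1) scale for each tested gene, by list. Points are genes, thick bars the list medians and the dashed line the median of all genes tested (-0.02). Pgr, at 0.88, lies to the right of every other gene plotted, and no gene shown passed the adjusted threshold.

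Markers of other ovarian cells were present beside the granulosa markers. In PGR-A KO, 10 of 10 oocyte markers and 5 of 5 erythroid markers had higher means on the log2 scale. Lower means on that scale were found for 9 of 10 granulosa, 7 of 8 macrophage and 7 of 7 surface epithelium markers, and 0 markers passed the threshold. In TPM, the mean of the most abundant erythroid marker, Hbb-bs, was lower in PGR-A KO, at 2035 ± 453 against 2195 ± 1639 in WT (SD, n = 4 each). The summed TPM of the oocyte markers, led by Gdf9, ran from 814 to 1454 in PGR-A KO and from 593 to 1115 in WT. That of the macrophage markers, led by Lyz2, ran from 53.4 to 114 in PGR-A KO and from 83.9 to 116 in WT. That of the surface epithelium markers, led by Krt8, ran from 83.1 to 89.7 and from 80.5 to 115, and that of the erythroid markers, led by Hbb-bs, from 3660 to 6318 and from 1732 to 11370. Theca and interstitial markers (Aldh1a1 highest) summed to 96.5 to 115 TPM in PGR-A KO and 86.0 to 250 TPM in WT, stromal and smooth muscle markers (Col3a1) to 132 to 170 and 132 to 179 TPM, and endothelial markers (Cdh5) to 15.7 to 27.7 and 20.4 to 41.2 TPM. Their part in the difference of Pgr was not tested.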

How the data were processed

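Polyadenylated RNA of 4 PGR-A KO and 4 WT pools of granulosa cells was sequenced as paired ends with a stranded kit, per the labels' protocols. The authors deposited a table of TPM per gene symbol. Tools listed in the submitters' processing notes are FastQC, Salmon, limma and edgeR, with mm10 as the build and no versions or roles; neither the annotation nor the step from transcripts to genes is given in the sources used here. TPM keeps no depth, so no counts were modelled and no counting intervals are given.

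Groups and replicate numbers came from the sample titles. Genes reaching 1 TPM in 4 or more libraries were fitted as log2(TPM + 1) with limma 3.58.1 (R 4.3.3, intensity trend, no covariate), with Benjamini-Hochberg adjustment over all 14472 genes, a threshold of 0.05 and 2-sided tests. The scale understates changes of low genes. Sums, shares and Pgr were compared by exact permutation over libraries (scipy 1.17.1). The fit was tested on simulated data.

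The members and lists were chosen with earlier results of these data known. Beside the 8 members, the text names the lowest p and the highest mean in each list, in each marker list the most abundant, and the 3 genes closest in pattern to each tested member, leaving out Gm, Rik and pseudogene names; 1 of those for Paqr8 is not reported here. Levels are ordered by mean TPM, and neighbours whose library ranges overlap are said not to differ. Cyp11a1 is in 2 lists. Positions and transcripts are from GENCODE M21 on mm10, matched by symbol for 8 of 8 members. Alternatives were other pseudocounts, filters, TMM factors, quantile normalization, variance models, a replicate block and left-out libraries.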

Additional observations from a re-analysis of the deposited data

Results flagged for a closer look

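Of 104 groups of 4 libraries examined for the named genes, 9 held a library far from the other 3, where chance gives about 5.2. Some of these genes (Hunk and Snap91 among them) were named for a library pattern like that of Pgr, so the numbers cannot be compared. Among the receptor genes this was Paqr8 alone, at 13.3 TPM in WT replicate 2 against 8.59 to 9.14 TPM in the other WT libraries. WT replicate 2 was also high in Hsd3b1 (3401 TPM, others 1846 to 2060) and Aldh1a1 (212 TPM, others 58.1 to 77.5). PGR-A KO replicate 3 was low in Fkbp5 (280 TPM, others 418 to 438) and Hunk (6.04 TPM, others 12.6 to 13.7), and high in Lyz2 (70.3 TPM, others 30.7 to 35.6) and Krt8 (30.5 TPM, others 27.7 to 27.9). WT replicate 1 was high in Fkbp5 (407 TPM, others 284 to 300) and Snap91 (4.48 TPM, others 2.14 to 2.48).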

How the results depend on the processing

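Pgr kept its higher level in PGR-A KO in all 17 alternatives that tested it, with a log2 difference from 0.37 (pseudocount 5) to 1.31 (pseudocount 0.1); a minimum of 5 TPM removed it. With a library left out it ran from 0.79 to 1.01, with a limma adjusted p from 0.137 to 0.998. With both PGR-A KO replicate 3 and WT replicate 1 left out it was 1.10 (limma adjusted p = 0.0107), so that 1 receptor gene passed in place of 0. Of the other pathway lists 25 genes passed in place of 0, where 8.01% of all genes tested passed. These libraries were picked by their values in 1 of those lists and hold the lowest knockout and the highest WT level of Pgr. The lists were chosen with earlier results known, so neither count is further support. In the fit without both, 1131 genes passed, against 2 in the fit of all libraries and 0 to 6 with a library left out. At an unadjusted p under 0.05, the 913 of 14472 genes tested were 1706 of 33251 without a filter and 3543 of 14114 without both. With a library left out they ran from 505 of 14368 to 1832 of 14318. With a library left out, the exact permutation p of Pgr was 0.0571, and without both 0.1, the smallest those numbers allow. Differences near 0 changed sign. That of Pgrmc1 was -0.024 without both libraries and -0.0058 to 0.054 with a library left out. That of Paqr8 was 0.00078 with TMM factors, 0.0098 with quantile normalization, 0.053 without both and -0.10 to 0.10 when leaving out a library. That of Paqr9 ran from -0.031 to 0.10. Without both, the log2 difference of the PGRMC sum was -0.012, and that of the Paqr8 share 0.217 percentage points; leaving out a library, the shares of Paqr8 (-0.233 to 0.252), Paqr9 (-0.0056 to 0.066) and Pgrmc2 (-0.163 to 0.973) changed sign. The cause was not tested. The median of each list kept its sign with TMM factors and with quantile normalization, under which 14 of 14 chaperones had higher means in PGR-A KO. With a library left out, medians moved by over 1.5 times in every pathway list and changed sign in a pair of them: the coactivators ran from -0.051 to 0.064 and the G proteins from -0.086 to 0.013. The PGR-dependent genes ran from 0.096 to 0.470 (0.671 without both) and progesterone synthesis from 0.030 to 0.340 (0.477 without both). Both libraries stood apart in the PGR-dependent list itself, so the rise of its median without them is no support. The other PAQR genes ran from -0.141 to -0.015, the other MAPR genes from -0.218 to -0.074 (-0.266 without both), the PGRMC partners from 0.022 to 0.184, the chaperones from 0.00079 to 0.095 (0.141 without both) and the other steroid receptors from -0.222 to -0.042. Same-numbered libraries deviated with correlations of 0.361, -0.109, 0.393 and -0.290, which does not show whether the numbers pair them. The replicate block gave Pgr a difference of 0.88 (limma adjusted p = 0.339) and called 0 receptor genes. Under that block 1368 genes had an unadjusted limma p under 0.05, against 913 without it. TPM gives no depth, so the precision of low values is unknown. This holds for Paqr5, the lowest gene, and also for Pgr, at 0.756 to 3.52 TPM.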
